A study of Homo sapiens with 24 samples.

Results

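The genes described here are antioxidant, detoxification and NADPH genes linked to the transcription factor NRF2. The list names 32 genes, and a gene was measured from the exon probe sets that carry its symbol and no other. This left 31 of the 18613 genes measured in the same way, because the rows of SRXN1, which encodes sulfiredoxin, carry a second symbol. The 31 genes rest on 673 exon probe sets.

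HCT116 cells, which derive from a human colorectal carcinoma, and a p53-null subline of them were left untreated, given the vehicle DMSO, or given 30 µM isoginkgetin, all for 8 h. Isoginkgetin is a plant biflavonoid known as an inhibitor of pre-mRNA splicing. Total RNA was hybridised to Affymetrix Human Transcriptome Array 2.0 chips, 2 per group from independent experiments, which gives 12 arrays in 6 groups. The 3 arrays that share a cell line and a replicate number form a set, so there are 4 sets. Whether the subline stands for a single clone is not given in the sources used here, and p53 loss is the difference between the lines that the labels name. Values are log2 levels, a gene's level is the mean over its exon probe sets, and its response is the isoginkgetin array minus the DMSO array of the same set. A change of 1 on this scale is a doubling. Fewer cells of a kind and less RNA per cell cannot be told apart in such bulk samples.

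The arrays labelled HCT116 replicate 1 stood apart in cell type markers. Marker and p53 target levels in this paragraph are means over the 3 arrays of a set, the isoginkgetin array included. The mean level of 7 colon epithelial markers was 5.03 in these arrays and 11.70 to 11.88 in the other 3 sets. The mean of 5 fibroblast and mesenchymal markers was 7.43 there and 3.55 to 3.75 elsewhere, and VIM, the mesenchymal filament vimentin, reached 12.56 against 3.10 to 3.67. These arrays are called HCT116-labelled set 1 below. Counts of passing members and medians of member groups are given with and without them, while most single-gene means and intervals include them. The mean of the p53 targets CDKN1A and MDM2 was 9.71 and 10.21 in the HCT116-labelled sets and 8.88 and 9.16 in the p53-null sets.

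NRF2, encoded by NFE2L2, is held in the cytoplasm and marked for degradation by KEAP1, which acts as an adaptor of a CUL3 ubiquitin ligase. Electrophiles and oxidants modify KEAP1, NRF2 then accumulates, pairs with small MAF proteins and binds antioxidant response elements. Its known targets make glutathione, recycle thioredoxin, supply NADPH, reduce quinones and carbonyls, store iron and export conjugates, and in colon carcinoma cells HMOX1, NQO1 and GCLM are common readouts of the pathway.

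The core of the antioxidant response element, TGACNNNGC, was searched on both strands of RefSeq promoters (GRCh38.p14, 250 bases before to 50 bases after a gene's start). On the gene's strand a match on the other strand reads GCNNNGTCA. Of 25 member genes with a promoter entry, 9 held it (36%), namely PGD, GCLM, EPHX1, ME1, TXNRD1, GPX2, KEAP1, CBR1 and PIR. Counted by promoter, 10 of 33 member promoters held it (30.3%), against 13.3% of all 35116 promoters. The stretches below show examples of the element in member promoters, with the match in capitals and each sequence read 5′ to 3′ on the gene's strand. UGDH is shown for contrast, as the member whose response passed the test and whose 300-base window holds no match. These examples were picked after responses were seen, a match is a description and not a binding site, and no match says only that these letters are not in this window.
GCLM (chr1:93909440-93909480, - strand): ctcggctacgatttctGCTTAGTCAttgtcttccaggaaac
TXNRD1 (chr12:104215664-104215704, + strand): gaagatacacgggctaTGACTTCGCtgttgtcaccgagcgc
EPHX1 (chr1:225825260-225825300, + strand): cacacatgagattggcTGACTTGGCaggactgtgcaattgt
KEAP1 (chr19:10502801-10502841, - strand): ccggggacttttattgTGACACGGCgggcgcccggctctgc
ME1 (chr6:83431052-83431301, - strand): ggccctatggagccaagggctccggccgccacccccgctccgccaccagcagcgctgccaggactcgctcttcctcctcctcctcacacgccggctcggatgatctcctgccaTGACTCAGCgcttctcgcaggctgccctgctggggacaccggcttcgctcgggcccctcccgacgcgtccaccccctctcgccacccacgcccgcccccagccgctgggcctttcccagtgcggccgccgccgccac
UGDH (chr4:39527440-39527689, - strand): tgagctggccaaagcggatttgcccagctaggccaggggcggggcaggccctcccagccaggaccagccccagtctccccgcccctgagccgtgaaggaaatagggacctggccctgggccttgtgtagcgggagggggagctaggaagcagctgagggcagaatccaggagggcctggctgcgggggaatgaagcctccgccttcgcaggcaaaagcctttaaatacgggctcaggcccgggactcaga
The first base of the match lay at -34 from the start in GCLM, -99 in TXNRD1, -78 in EPHX1, -54 in KEAP1 and -137 in ME1. TXNRD1 and ME1 hold further matches in their windows, outside the stretches shown. A further KEAP1 match, on the other strand, starts at -31, at the final gc of the stretch shown, and runs on past it.

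After 8 h of isoginkgetin the 31 genes stayed close to their DMSO levels. Over the 4 sets the median response was 0.03, against 0.01 over all genes, and 0.02 without HCT116-labelled set 1. A positive mean was seen in 20 of 31 members, beside 10339 of all 18613 genes. Only UGDH, which encodes UDP-glucose dehydrogenase and supplies glucuronic acid for conjugation, passed the test over all sets. That is 1 of 31 members beside 4.65% of all genes. In the p53-null sets 0 of 31 members passed the limma test beside 0.398% of all genes, and in the HCT116-labelled sets 0 of 31 passed beside 3.72%. At an unadjusted threshold of 0.05 these counts were 3 and 9 of 31 members, beside 11.7% and 25.5% of all genes.

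Over the 4 sets, the 95% interval of the response lay within 0.25 of 0 on the log2 scale for 25 of 31 members and within 0.5 for 30, and it excluded a 2-fold change in either direction for all 31. In the p53-null sets the interval lay within 0.5 for 30 members and in the HCT116-labelled sets for 27, and both excluded a 2-fold change for all 31. Without HCT116-labelled set 1, the interval in HCT116 lay within 0.25 for 12 members and excluded a 2-fold change for 30 of 31, the exception being TALDO1 (0.64 to 1.06). TALDO1 was the member whose interval over the 4 sets reached past 0.5 (-0.02 to 0.55). Of the 31 members, 22 had a mean level of at least 6. GPX2, AKR1C1, AKR1C2 and CBR1 had no exon probe set with a mean level of at least 8, and HMOX1 had 3 of 15. Whether low signal narrowed the intervals of such genes was not tested.

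No member moved by 1 log2 unit in any set. Responses ran from -0.25 to 0.41 in HCT116-labelled set 1, from -0.33 to 0.85 in HCT116-labelled set 2, from -0.20 to 0.39 in p53-null set 1 and from -0.25 to 0.23 in p53-null set 2. The vehicle alone, DMSO minus untreated, gave -0.15 to 0.07, -0.28 to 0.13, -0.32 to 0.24 and -0.14 to 0.08 in the same order. The SD over members was 0.13, 0.26, 0.11 and 0.09 for the drug and 0.05, 0.08, 0.12 and 0.05 for the vehicle. The members spread wider under the drug than under the vehicle in 3 sets and not in p53-null set 1. Over all genes the SD was 0.17, 0.21, 0.14 and 0.11 for the drug and 0.07, 0.08, 0.10 and 0.07 for the vehicle. A wider spread under the drug is thus not particular to the members. In HCT116-labelled set 2, 3 of 31 members exceeded 0.5 in size, beside 3.3% of all genes, and in the other sets none did.

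**Figure D1:**
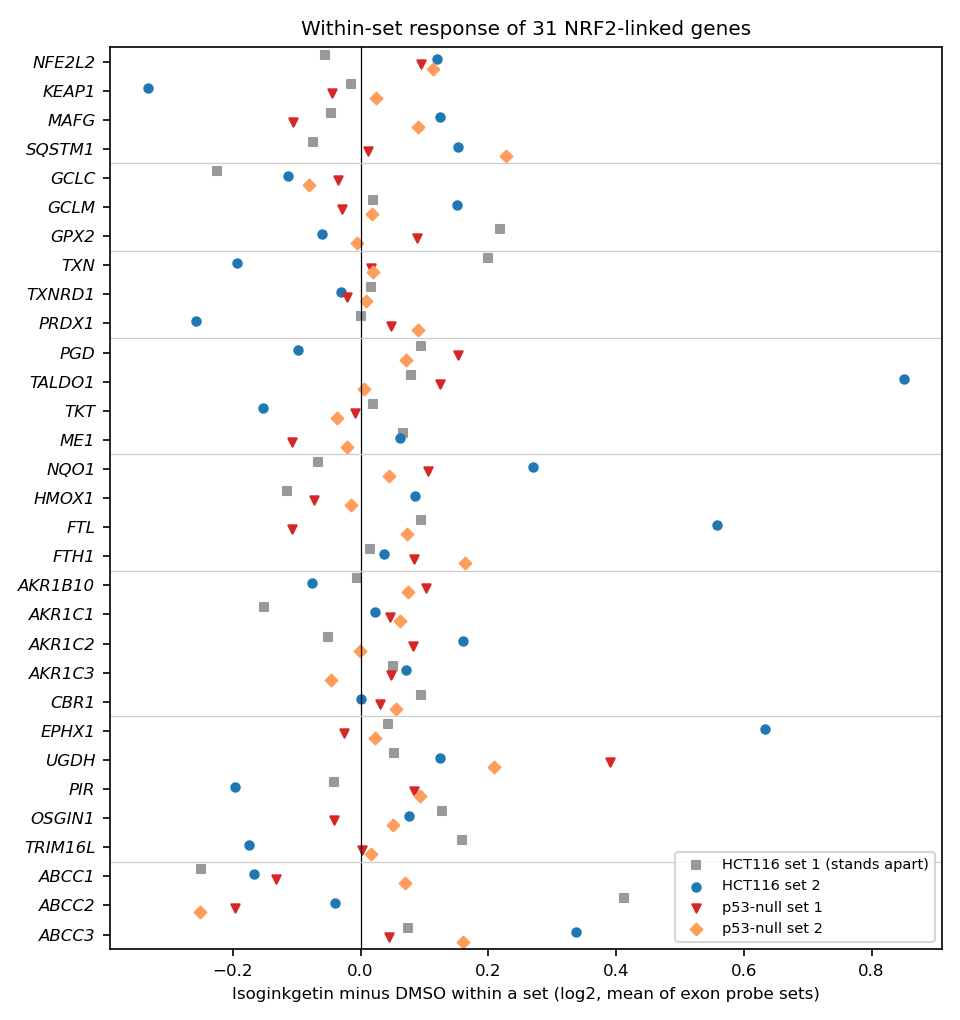
Response (isoginkgetin minus DMSO, log2, horizontal axis) of each of the 31 members (rows, grouped by role from regulators at the top to export pumps at the bottom) in each of the 4 sets, 1 point per set. Most points lie within 0.25 of 0, and the points farthest to the right are TALDO1 (0.85), EPHX1 (0.63) and FTL (0.56) in HCT116-labelled set 2.

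The regulators showed no common change. NFE2L2, the gene of NRF2 itself, had responses of -0.06 and 0.12 in the HCT116-labelled sets and 0.10 and 0.11 in the p53-null sets (mean 0.07, adjusted p = 0.328). KEAP1, its repressor, gave -0.02, -0.33, -0.04 and 0.02 in the same order (mean -0.09, adjusted p = 0.317). HCT116-labelled set 2 was the one low value, and all 6 KEAP1 exon probe sets with a mean level of at least 8 lay below DMSO in it. MAFG, a small MAF partner of NRF2, gave -0.05, 0.12, -0.10 and 0.09, and SQSTM1, the autophagy receptor p62 that can sequester KEAP1, gave -0.07, 0.15, 0.01 and 0.23.

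Glutathione genes lay on both sides of 0. GCLC, the catalytic subunit of glutamate-cysteine ligase, was at 7.48, 7.87, 7.93 and 7.90 in the DMSO arrays of HCT116-labelled sets 1 and 2 and p53-null sets 1 and 2, and at 7.25, 7.76, 7.89 and 7.82 with isoginkgetin. It was lower with the drug in each of the 4 sets, by little (mean -0.11, 95% interval -0.19 to -0.03), and did not pass the test (adjusted p = 0.109). GCLM, the modifier subunit of the same enzyme and a standard NRF2 readout, was at 10.42, 10.18, 10.22 and 9.88 with DMSO and at 10.44, 10.33, 10.19 and 9.90 with the drug. Its mean response was 0.04 with an interval of -0.04 to 0.11. GPX2, a glutathione peroxidase of the gut epithelium, had low levels (3.35 to 4.17 with DMSO) and responses of 0.22, -0.06, 0.09 and -0.01.

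Thioredoxin genes had mean responses over the 4 sets between -0.03 and 0.01. TXNRD1, thioredoxin reductase, was at 9.21, 10.29, 9.79 and 9.66 with DMSO and at 9.23, 10.26, 9.77 and 9.67 with isoginkgetin, which gives a mean response of -0.01 (interval -0.07 to 0.05). TXN, thioredoxin, gave 0.20 and -0.19 in the HCT116-labelled sets and 0.02 in each p53-null set. PRDX1, a peroxiredoxin that thioredoxin reduces, gave 0.00 and -0.26 in the HCT116-labelled sets and 0.05 and 0.09 in the p53-null sets. The group's median response was -0.01, against 0.04 for the glutathione genes. Without HCT116-labelled set 1 these medians were -0.09 and -0.01.

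NADPH and pentose phosphate genes had a median response of 0.03, and of 0.00 without HCT116-labelled set 1. PGD, which makes NADPH from 6-phosphogluconate, gave 0.10, -0.10, 0.15 and 0.07. TKT, the transketolase of the pathway's non-oxidative arm, gave 0.02, -0.15, -0.01 and -0.04. ME1, the cytosolic malic enzyme, gave 0.07 and 0.06 in the HCT116-labelled sets and -0.11 and -0.02 in the p53-null sets, and its interval over the sets was narrow (-0.08 to 0.08). TALDO1, transaldolase of the non-oxidative arm, was the exception and is described with its probe sets below.

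Haem, quinone and iron genes had a median of 0.08, and of 0.13 without HCT116-labelled set 1. HMOX1, haem oxygenase 1, was at 6.39, 5.84, 6.11 and 5.82 with DMSO and at 6.27, 5.92, 6.03 and 5.81 with isoginkgetin. Drug and DMSO arrays interleaved, the mean response was -0.03 (interval -0.19 to 0.13), and a 2-fold induction lay outside that interval. NQO1, the NAD(P)H quinone reductase, was at 13.08, 12.60, 11.84 and 12.25 with DMSO and at 13.01, 12.87, 11.94 and 12.29 with the drug, with a mean of 0.09 (interval -0.06 to 0.24). It was higher with the drug in 3 of 4 sets and lower in HCT116-labelled set 1. FTH1, the ferritin heavy chain, gave 0.01, 0.04, 0.08 and 0.16, positive in each set with a mean of 0.07 (adjusted p = 0.213). FTL, the ferritin light chain, gave 0.10, 0.56, -0.11 and 0.07. Ferritin genes have many processed copies in the genome, so their probe sets can share signal with them.

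Aldo-keto and carbonyl reductases had mean responses between -0.01 and 0.05. AKR1B10 gave -0.01 and -0.08 in the HCT116-labelled sets and 0.10 and 0.08 in the p53-null sets. AKR1C1, AKR1C2 and AKR1C3, which reduce steroids and lipid aldehydes, had means of -0.01, 0.05 and 0.03 with no response beyond 0.16 in size. CBR1, a carbonyl reductase, had low levels (2.86 to 3.75 with DMSO) and gave 0.10, 0.00, 0.03 and 0.06. The group's median was 0.03, and 0.04 without HCT116-labelled set 1. The AKR1C genes are near-identical in sequence, so their probe sets can share signal. With DMSO their levels were 2.85 to 3.90 in the 3 epithelial sets.

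UGDH was the member whose mean response over all sets passed the test. It was at 10.83, 10.42, 9.70 and 10.01 in the untreated arrays, at 10.85, 10.36, 9.57 and 9.96 with DMSO and at 10.90, 10.49, 9.96 and 10.17 with isoginkgetin, in HCT116-labelled sets 1 and 2 and p53-null sets 1 and 2. Each drug array was above both control arrays of its own set. Across sets the groups overlapped, since the treated array of p53-null set 1 only reached the DMSO level of p53-null set 2. FTH1 and ABCC3 also stood above both control arrays in each set. TALDO1 and CBR1 were above DMSO in each set, CBR1 by only 0.00 in HCT116-labelled set 2. The UGDH responses were 0.05, 0.12, 0.39 and 0.21, with a mean of 0.19 (SE 0.04, interval 0.11 to 0.28), or 1.14-fold (adjusted p = 0.033). In the p53-null sets alone the mean was 0.30 (interval 0.18 to 0.42, adjusted p = 0.074).

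The UGDH call depended on the sets in the fit, while the estimate stayed positive. Without p53-null set 1 it was 0.15 (adjusted p = 0.391), without p53-null set 2 it was 0.24 (0.208), and without HCT116-labelled set 2 it was 0.18 (0.065). Without HCT116-labelled set 1 it was 0.21 and passed (0.029). Without the set as a block the adjusted p was 1. Failing without the block or without a p53-null set is not particular to UGDH, since those fits called no gene at all. It passed in 7 of 13 alternative settings, with values of 0.10 to 0.39 and adjusted p values of 0.0091 to 1.

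At the level of single probe sets the UGDH rise in the p53-null sets was broad. A bright probe set is one whose mean level over the arrays is at least 8. Of 20 bright UGDH exon probe sets, 18 were positive in p53-null set 1 (median 0.57) and all 20 in p53-null set 2 (median 0.32). In the HCT116-labelled sets 9 and 15 were positive, with medians of 0.00 and 0.06. The difference of the line responses did not pass the test for UGDH or any other member (0 of 31 and 0 of 18613 in limma, with 3 members and 2433 genes under an unadjusted 0.05).

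Other detoxification genes mostly stayed near 0. PIR, pirin, gave -0.04 and -0.20 in the HCT116-labelled sets and 0.08 and 0.09 in the p53-null sets. OSGIN1, an oxidative stress induced growth inhibitor, gave 0.13, 0.08, -0.04 and 0.05. Of its 2 bright probe sets, 1 gave 1.15 and 1.14 in the HCT116-labelled sets and -0.03 and 0.16 in the p53-null sets. The other gave 0.00 and 0.02 in the HCT116-labelled sets and -0.11 and -0.01 in the p53-null sets. This view of OSGIN1 was picked after its values were seen. TRIM16L gave 0.16, -0.18, 0.00 and 0.02, and it resembles TRIM16 closely enough that their probe sets may share signal. EPHX1, the microsomal epoxide hydrolase, gave 0.04, 0.63, -0.03 and 0.02.

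Export pumps did not move together. ABCC1 gave -0.25, -0.17, -0.13 and 0.07 and ABCC3 gave 0.07, 0.34, 0.05 and 0.16, with means of -0.12 (interval -0.23 to -0.01, adjusted p = 0.175) and 0.15 (0.04 to 0.26, adjusted p = 0.107). ABCC2, a pump for glutathione and glucuronide conjugates, was at 4.04, 9.87, 8.64 and 8.73 with DMSO and at 4.46, 9.83, 8.44 and 8.48 with the drug. It was higher with the drug in HCT116-labelled set 1, where its level was low, and lower in the other 3. In the untreated arrays it was at 3.98, 10.15, 8.88 and 8.87, above DMSO in 3 sets, so that the vehicle step in those sets (-0.28 to -0.14) was of the same order as the drug step (-0.25 to -0.04).

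**Figure D2:**
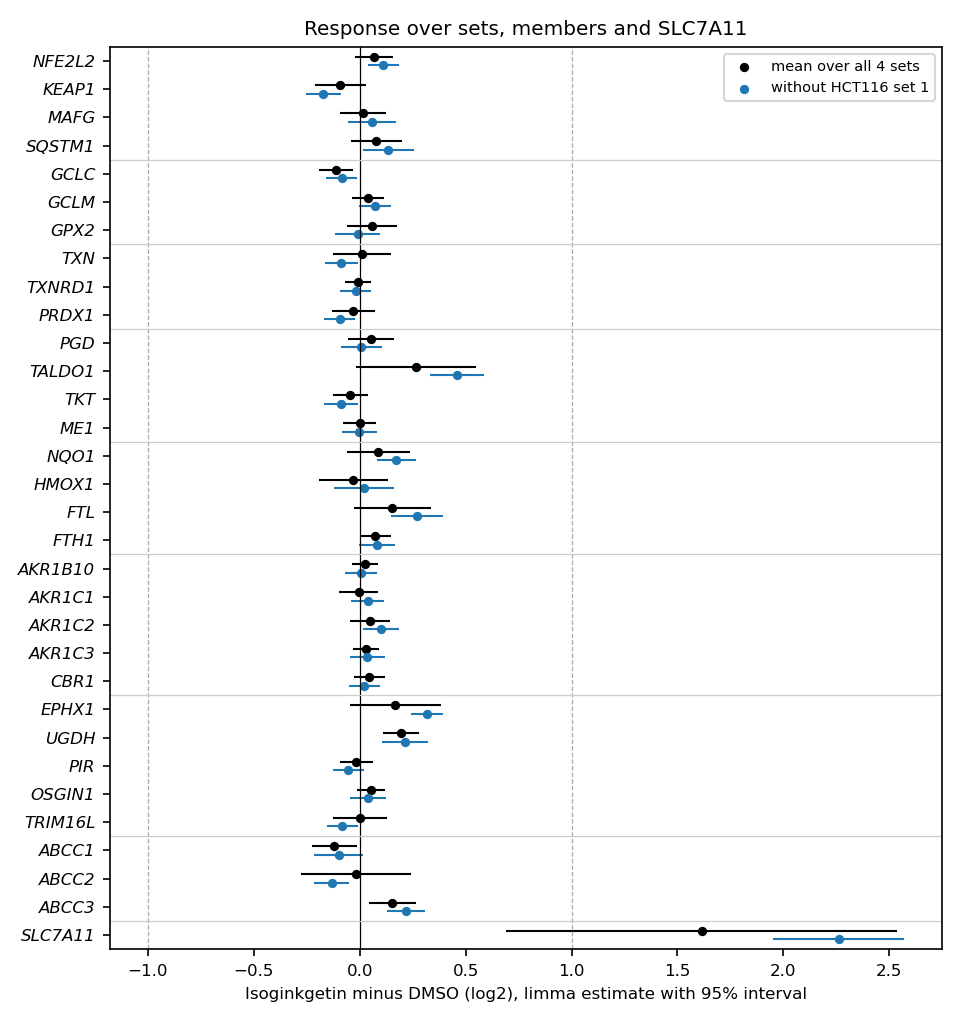
Limma estimate of the response over sets (log2, horizontal axis) with its 95% interval for each member and for SLC7A11, over all 4 sets (black) and without HCT116-labelled set 1 (blue); dashed lines mark a 2-fold change. All 31 member intervals lie between the dashed lines in both fits, while SLC7A11 lies at 1.61 over 4 sets and at 2.26 without that set.

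With HCT116-labelled set 1 left out, HCT116 is represented by a single set, whose spread is assumed equal to that of the p53-null sets. In this fit 7 of 31 members passed in HCT116-labelled set 2, beside 13.8% of all genes. TALDO1 (0.85), EPHX1 (0.63), FTL (0.56), ABCC3 (0.34) and NQO1 (0.27) were higher, and KEAP1 (-0.33) and PRDX1 (-0.26) were lower. In the p53-null sets 1 of 31 passed (UGDH, 0.30, adjusted p = 0.048), beside 2.38% of all genes. Over the sets 7 members passed beside 14.8% of all genes, namely TALDO1, EPHX1, FTL, ABCC3, NQO1 and UGDH up and KEAP1 down. With either p53-null set left out, 0 members and 0 of all genes passed in any drug comparison of the limma fit.

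TALDO1 showed the largest response of any member. It was at 11.37 untreated, 11.27 with DMSO and 12.12 with isoginkgetin in HCT116-labelled set 2. The DMSO and drug levels were 11.63 and 11.71 in HCT116-labelled set 1, 10.98 and 11.11 in p53-null set 1 and 11.84 and 11.85 in p53-null set 2. The treated array of HCT116-labelled set 2 thus exceeded every other TALDO1 array, while the other 3 sets moved by 0.12 or less.

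The TALDO1 response was not even along the gene. All 9 bright exon probe sets were higher with the drug in HCT116-labelled set 2, with a median of 0.45 over the lower-numbered part and 1.71 over the higher-numbered part, and a largest value of 1.77. FTL showed the same order there, with medians of 0.22 and 0.81 over its 10 bright probe sets. EPHX1 ran the other way, with 1.42 and 0.60 over its 12 bright probe sets. Probe sets were ordered by identifier, which was not checked against exon order, and these genes were chosen for this view after their values were seen.

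FTL was at 14.94 untreated, 14.89 with DMSO and 15.45 with isoginkgetin in HCT116-labelled set 2, and all 10 bright probe sets were positive. In p53-null set 1, 9 of the 10 were negative (median -0.10). EPHX1 was at 8.64, 8.59 and 9.23 in HCT116-labelled set 2, above its p53-null levels of 7.88 to 8.31. For both genes the response exceeded 0.5 in 1 set of 4.

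In the fit without HCT116-labelled set 1, the response difference between the lines passed the test for 5 of 31 members, beside 5.93% of all genes. The p53-null response was higher for KEAP1 (by 0.32) and PRDX1 (by 0.33). For TALDO1, EPHX1 and FTL the p53-null minus HCT116 difference was -0.79, -0.63 and -0.58. With 1 HCT116 set on one side, line and set cannot be told apart in this comparison.

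**Figure D3:**
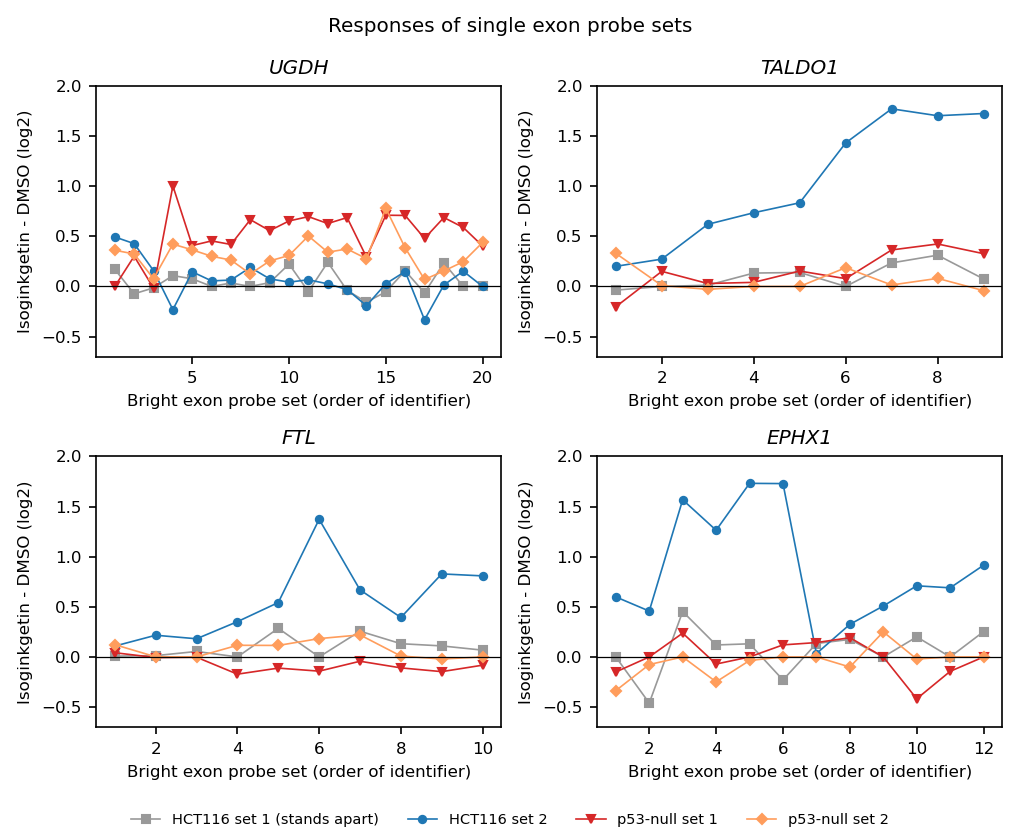
Response of every bright exon probe set (isoginkgetin minus DMSO, log2, vertical axis) in order of identifier (horizontal axis) for UGDH, TALDO1, FTL and EPHX1, 1 line per set. In UGDH 18 of 20 probe sets lie above 0 in p53-null set 1 and 20 in p53-null set 2, whereas TALDO1, FTL and EPHX1 lie above 0 throughout only in HCT116-labelled set 2 and unevenly, up to 1.77, 1.37 and 1.73.

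Among other genes of the pathway, 43 of 49 on a written list had usable rows. In the p53-null sets 0 of 43 passed the limma test, beside 0.398% of all genes (9 at an unadjusted 0.05, beside 11.7%). In the HCT116-labelled sets 1 passed, beside 3.72% of all genes, namely BLVRB, a biliverdin reductase (0.41, adjusted p = 0.049). Over all sets 3 passed, beside 4.65%. PPARG, a lipid-sensing nuclear receptor, rose by 0.29 (adjusted p = 0.021). ABCC4, an efflux pump, fell by 0.21 (adjusted p = 0.041), and CUL3, the ligase scaffold that acts with KEAP1, fell by 0.12 (adjusted p = 0.043). The list's median response over all sets was 0.00. BLVRB, ABCC4 and CUL3 did not pass when HCT116-labelled set 2 was left out. These 3 and PPARG did not pass without either p53-null set, where no gene of any kind passed, so that outcome is not particular to them.

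SLC7A11, the cystine carrier that feeds glutathione synthesis, moved on another scale than the members. It was at 10.11, 9.15, 8.73 and 8.75 with DMSO and at 10.10, 11.73, 11.01 and 10.35 with isoginkgetin. The response was -0.01 in HCT116-labelled set 1 and 2.58, 2.28 and 1.60 in the other 3 sets. The 4-set mean of 1.61 (interval 0.69 to 2.54) did not pass the test (adjusted p = 0.065), and without HCT116-labelled set 1 the mean of 2.26 did (interval 1.95 to 2.57, adjusted p = 0.0013). CHAC1, a glutathione-degrading enzyme picked here after its values were seen, gave -0.13, 4.45, 3.67 and 2.21. In the 3 sets where SLC7A11 responded by 1.60 or more, the responses of GCLM, TXNRD1, HMOX1 and NQO1 lay between -0.07 and 0.27. The 31 members ran wider there, from -0.33 to 0.85 in HCT116-labelled set 2, where TALDO1, EPHX1 and FTL exceeded 0.5. The cause of the SLC7A11 response was not tested.

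Without HCT116-labelled set 1, 6 of 43 other pathway genes passed as higher and 7 as lower over the sets, beside 14.8% of all genes in either direction. The higher ones were SLC7A11, CHAC1, SLC3A2 (the partner chain of SLC7A11, 0.30), PPARG, BLVRB and OXSR1. The lower ones were TXN2, PRDX5, PRDX2, ABCC4, NFE2L1, TRIM16 and CUL3. TXN2, mitochondrial thioredoxin, and PRDX5, a peroxiredoxin found in mitochondria and peroxisomes, stood out in HCT116-labelled set 2 with -1.15 and -0.97. Their responses were -0.29 and 0.08 in HCT116-labelled set 1 and between -0.13 and 0.13 in the p53-null sets. In the p53-null sets 4 of 43 passed as higher in this fit, beside 2.38% of all genes in either direction. They were SLC3A2 (0.21), SLC7A11, CHAC1 and PPARG.

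Basal levels were taken as the mean of the untreated and DMSO arrays of a set. With 2 sets against 2, 0 of 31 members differed between p53-null and HCT116-labelled sets in limma (0 at an unadjusted 0.05), beside 0.00537% of all genes. The set labelled HCT116 replicate 1 widened these comparisons. ABCC2 was at 4.01 in it, 10.01 in HCT116-labelled set 2 and 8.76 and 8.80 in the p53-null sets. ME1 was at 9.77 in it against 12.54, 11.97 and 11.92. AKR1C1, AKR1C2 and AKR1C3 were at 4.55, 4.44 and 5.21 in it and at no more than 3.36, 3.27 and 3.93 elsewhere. These 5 genes were the members more than 1 log2 unit from the mean of the other sets (16.1% of members, against 28.2% of all genes).

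Levels of the 2 lines did not overlap for 13 of 31 members, beside 28.6% of all genes, and none of these passed the test. Among the 13, GCLC, TXN, PRDX1 and FTH1 were higher in the p53-null sets and the others, GCLM among them, were lower. NQO1 was at 13.11 and 12.62 in the HCT116-labelled sets and 11.90 and 12.25 in the p53-null sets (difference -0.79, SE 0.46, adjusted p = 0.972). UGDH was at 10.84 and 10.39 against 9.64 and 9.99, and EPHX1 at 9.16 and 8.62 against 7.91 and 8.28. GCLM lay between 9.87 and 10.46 and HMOX1 between 5.79 and 6.44 in all sets. NFE2L2 was at 9.83, 9.61, 9.41 and 9.39.

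Without HCT116-labelled set 1, 2 of 31 members differed in basal level, beside 2.58% of all genes. ABCC1, an export pump for glutathione conjugates, was lower in the p53-null sets by 1.11 on the log2 scale (9.12 and 9.03 against 10.19, adjusted p = 0.0072). ABCC2 was lower there by 1.23 (8.76 and 8.80 against 10.01, adjusted p = 0.0017). This sets 2 p53-null sets against 1 HCT116 set, with an SE of 0.29 that the fit shares among all genes, so line and set cannot be told apart.

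**Figure D4:**
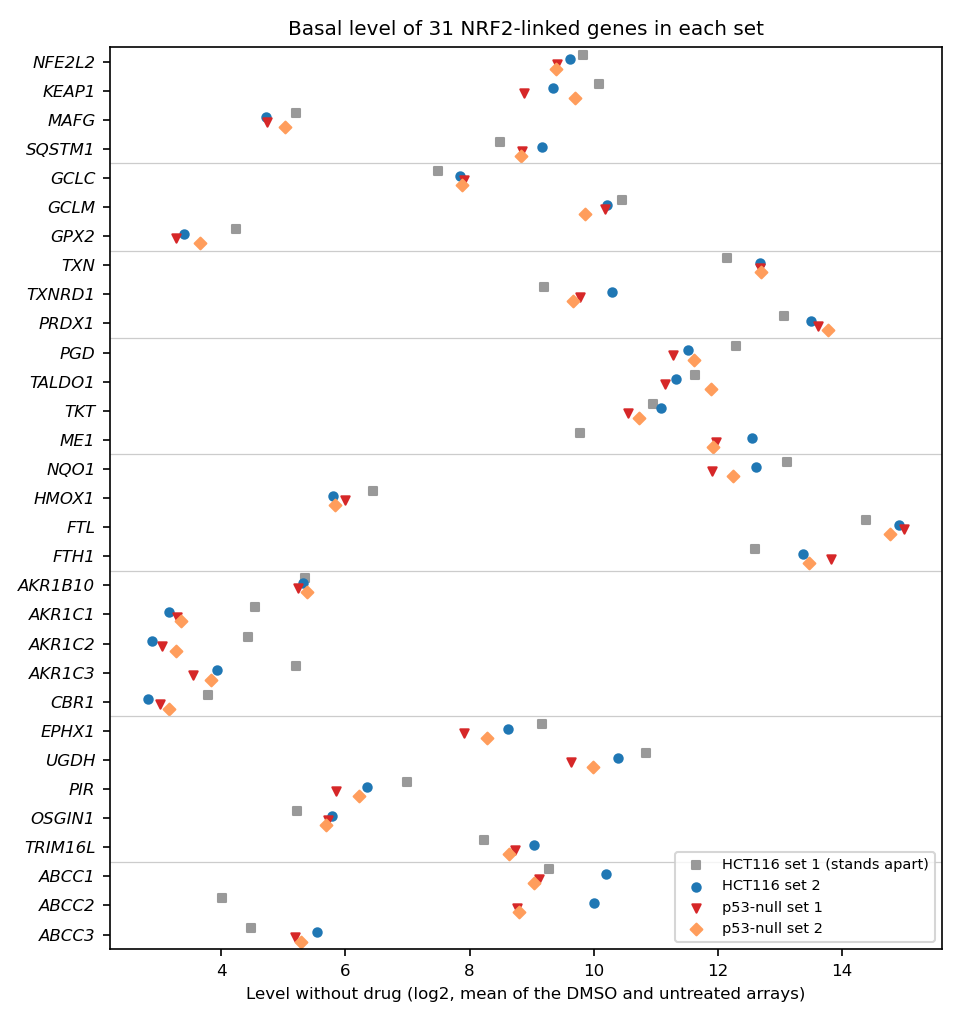
Level without drug (log2, mean of the DMSO and untreated arrays, horizontal axis) of each of the 31 members (rows, grouped by role) in each of the 4 sets. ABCC2 and ME1 lie far to the left in HCT116-labelled set 1 (4.01 and 9.77) and the 3 AKR1C genes to the right; ABCC1 and ABCC2 also lie higher in HCT116-labelled set 2 (10.19 and 10.01) than in the p53-null sets, and levels of different genes come from different probes and are not comparable with each other.

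Junction probe sets span the joint of neighbouring exons and were not used to choose or measure the members. The response of a gene's junctions minus that of its exons passed the limma test for 0 of 16716 genes in either line (1058 and 1706 at an unadjusted 0.05, among them 2 and 4 of the 31 members). HMOX1 had lower junction than exon responses in each set, at -0.14, -0.41, -0.15 and -0.45, but did not pass (adjusted p = 0.494 in the HCT116-labelled sets and 0.783 in the p53-null sets). For UGDH the value was 0.20 and 0.30 in the HCT116-labelled sets and -0.11 and -0.13 in the p53-null sets. Averaged over the sets of a line, member values ran from -0.30 to 0.24 in p53-null and from -0.28 to 0.31 in HCT116; single sets went further, with CBR1 at -0.68 in HCT116-labelled set 1 and GPX2 at 0.72 in HCT116-labelled set 2.

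In the gene-level table of the same arrays, 30 members have a row of their own, and 92 of their 120 drug and DMSO pairs were exactly equal. For 13 members the values were equal in all 4 sets, so that table cannot show changes as small as most of those above. Where values differed they ran from -0.22 to 0.81. The largest was TALDO1 in HCT116-labelled set 2 (0.81), with EPHX1 at 0.48 and FTL at 0.44 in the same set and UGDH at 0.34 in p53-null set 1. Among the members' exon probe sets, 18.4% to 25.9% per set were exactly equal between drug and DMSO, against 29.84% to 36.49% of all exon probe sets. The part of these ties in the mean responses was not tested.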

How the data were processed

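Members, lists, examples and settings were chosen with earlier results of these data known. Log2 values were made by the authors in Transcriptome Analysis Console 4.0 with default settings, per the submitters' processing notes and design text, and are used as deposited; how they were background-corrected and summarised is not stated in those sources. The gene-level table of the same arrays was used as an alternative. Of 573909 exon probe sets, those with exactly 1 symbol in a gene with at least 3 were averaged per gene (381400 probe sets, 18613 genes). Arrays have no read depth, so their number limits precision.

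Isoginkgetin was compared with DMSO, and DMSO with untreated, in limma 3.58.1 (R 4.3.3) over all 12 arrays with the set as a block, which leaves 4 residual degrees of freedom. P values were adjusted over all genes by Benjamini-Hochberg and called under 0.05. Basal levels were compared without a block. The rule for the members takes differences within replicate number, so the block is the main fit; it was chosen knowing that the unpaired fit calls 0 genes, and the study's own test was unpaired. The pairing comes from the data: after removal of group means, same-numbered arrays had r of 0.903 to 0.997 within a line (6 pairs) and 0.0678 to 0.107 across lines (9 pairs). All members are named, and of the other pathway list SLC7A11 and genes past the test. Python 3.11.15 and pandas 2.3.3 prepared tables and promoter matches. The fit was tested on simulated data first. Alternatives were other scalings, medians, a trend, a level filter, pooled controls, no block, the unpaired test, the gene-level table and leaving out each set. The targeted gene of the subline and 1 gene of the naming rule are not reported here.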

Additional observations from a re-analysis of the deposited data

Results flagged for a closer look

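Responses of opposite sign in the 2 lines, in both sets of each, were seen for 3 members. The p53-null minus HCT116 difference was -0.129 for ME1, 0.13 for AKR1B10 and 0.207 for PIR (log2). None of these differences passed the limma test (adjusted p = 0.452, 0.369 and 0.269). Such a split of signs was seen in 13% of all genes, and the single responses of ME1 and AKR1B10 were at most 0.107 in size.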

How the results depend on the processing

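Counts of all genes called depended strongly on the fit. Without the replicate block, which is the pairing by number within a line, 0 genes and 0 members were called in p53-null, HCT116 or over all sets, and the unpaired test of the study's methods also called 0 in each line. For p53-null (74 genes with the block) the count was 1 with medians of probe sets, 3 with an intensity trend, 481 with untreated and DMSO arrays pooled as control (1 member), 15 in the gene-level table and 134 with bright exons alone (1 member), a setting chosen after seeing the data. For HCT116 (693 genes) it was 449 with quantile scaling, 161 with medians, 3201 with pooled controls (5 members) and 91 in the gene-level table. Over all sets (866 genes) it was 15 with medians (0 members), 3138 with pooled controls (4 members) and 90 in the gene-level table (0 members). The difference of responses (0 genes) gave 163 with pooled controls and 73 in the gene-level table. Leaving out 1 set gave 0 to 443 genes (0 to 1 members) in p53-null, 0 to 2576 (0 to 7) in HCT116, 0 to 2756 (0 to 7) over all sets and 0 to 1103 (0 to 5) for the difference. Basal differences (1 gene) numbered 0 with quantile scaling, centring or a level of at least 6, 3 with a trend, 5 in the gene-level table, and 7 to 9439 (0 to 15 members) with 1 set left out. ABCC2 turned direction in the basal comparison, at -1.23 (p53-null minus HCT116, adjusted p = 0.0017) without HCT116 replicate 1 and 4.77 (adjusted p = 4.31e-59) without HCT116 replicate 2. In the drug comparisons within a line and over all sets, no member called in one setting was called in the other direction in another. The causes were not tested; a fit without 1 set of a line takes its spread from the other line alone.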

Other observations

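The junction probe set of EPHX1 with the lowest identifier stood apart in the DMSO array of the set labelled HCT116 replicate 1. It was at 14.67 there, against 8.55 in the other HCT116-labelled set and 7.25 and 8.53 in the p53-null sets (log2). The remaining 9 EPHX1 junction probe sets differed less between that set and the highest of the others. This probe set was picked after its values were seen.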
